A study of Rattus norvegicus with 2 samples.

Results

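Leucine-rich repeat (LRR) proteins of the neuronal surface were followed through an RNA pull-down with P180/RRBP1, an ER membrane protein that binds ribosomes. The set was chosen by gene name: the Lrrtm, Flrt, Slitrk, Lrrn, Lrfn, Lingo, Lrig, Elfn, Amigo and Lrrc4 families, the Nogo receptors Rtn4r, Rtn4rl1 and Rtn4rl2, the secreted Lgi1 to Lgi4, and Omg and Islr2. It held 53 of the 25628 genes in the deposited count table. The name pattern for Lrrc4 also caught 8 genes named in the range Lrrc40 to Lrrc49, which share the LRR name but do not belong to the surface families. These 8 are kept in the set, described apart from the 45 surface or secreted proteins, and called the Lrrc40 to Lrrc49 genes.

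The cells were rat primary cortical neurons. 1 sample expressed P180 joined to GFP with a tag for biotinylation (P180-GFPbio), the other only the tagged GFP (GFPbio, the control), and the RNA that stayed on streptavidin beads was sequenced. These are called the P180 pull-down and the GFP control. With 1 library of each analysed here, no difference below has a replicate check. Each ratio compares these libraries and not the conditions, and every interval is an exact 95% counting interval that covers counting error only. The labels give no treatment beyond the constructs, and the age of the cultures is not given in the sources used here. P180 was expressed from a construct, so the pull-down reads RNA held by the added tagged protein.

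An LRR is a short leucine-spaced stretch of protein that stacks with its neighbours into a curved surface for binding other proteins. In the surface families this curved domain faces the outside of the cell, where it binds receptors on another neuron, often across a synapse. Such proteins carry a signal sequence and are made on ribosomes at the ER, and most stay anchored by 1 transmembrane segment or a lipid anchor, while the Lgi proteins are secreted.

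The P180 pull-down held 6298343 counts and the GFP control 8428358, over 13407 and 9345 detected genes. Rrbp1 itself had 2541 and 1334 counts, a log2 ratio of 1.41 (1.32 to 1.51), and the tag that both constructs carry was 1.02% and 2.25% of all counts. Counts were divided by size factors of 0.846 and 1.18, which set the median ratio of genes seen in both libraries to 1, and the results are called scaled counts. Genes needed at least 10 counts over both libraries, which 11468 did. Where a gene had no count on one side, 3 counts (0.476 CPM in the P180 pull-down, 0.356 CPM in the GFP control) served as its floor. Its fold against the floor is then a bound for the observed counts only. With counting error the ratio can be smaller, down to the lower counting limit given beside it. Markers of several cell types had counts. All 10 neuronal markers had counts in both libraries, with 0 of them at least 2-fold higher and 2 lower in the P180 pull-down, and 0.803% against 0.927% of all counts in sum. Of the 10 astrocyte markers 8 were at least 2-fold higher, with 0.978% against 0.236% of counts in sum, and with Slc1a2 and Aldh1l1 at 0 in the GFP control. The same held for 6 of 8 dividing cell markers (0.0104% against 0.00186%, with Mki67, Cdk1, Ccnb1 and Aurkb at 0 in the GFP control) and 5 of 10 oligodendrocyte lineage markers (0.0647% against 0.0296%, with Sox10 and Mbp at 0 there and Mog and Mobp at 0 in both), while Bub1 of the former and Cspg4 of the latter were at least 2-fold lower. The 8 microglial and 7 endothelial or mural markers had 86 and 120 counts in the P180 pull-down and 0 in the GFP control, and 3 of each list reached the minimum. Of the 7 measured interneuron markers 3 were higher and 1 lower. Sums depend on which genes are listed, so sums of different lists do not compare amounts of cell types. Apoe (36460 counts) and Slc1a3 (19542) held most of the 61581 astrocyte marker counts in the P180 pull-down. Over all genes with at least 10 counts, 40.6% were at least 2-fold higher and 19.9% lower. Among those seen in both libraries the shares were 25.6% and 24.0%. Counting intervals lay wholly above equality for 6103 of the 11468 genes and wholly below it for 3866. Among the 43 LRR genes with at least 10 counts these were 19 and 18. Intervals that exclude equality or do not overlap were thus usual, and they do not show that a difference would recur in another library. Whether the samples differed in their cell types, and whether that had a part in the ratios of the LRR genes, was not tested.

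Past 2-fold, the measured LRR genes were about evenly split between the libraries only when genes without a count in the GFP control were included. Of the 53, 43 had at least 10 counts, 10 of these stood at least 2-fold higher in the P180 pull-down and 9 at least 2-fold lower, and 24 lay within 2-fold. Over all 11468 genes, 40.6% were higher by that factor and 19.9% lower. Of the 10 higher genes 4 had no count in the GFP control. Among the 39 with counts in both libraries 6 were higher and 9 lower, against 25.6% and 24.0% of all such genes. Where scaled counts averaged 100 or more, 4 of 34 were higher and 8 lower, against 22.8% and 22.6% of all such genes. The 43 had a median log2 ratio of -0.14, which became 0.12 without the filter on counts, against 0.45 over all genes. The share of all counts that fell on the 53 genes was 0.597% in either sample. These totals include mitochondrially encoded genes, at 7.31% of the P180 pull-down and 16.6% of the GFP control, so the equal shares depend on what else each library held. Scaled by totals without those genes and the tag, the 43 had a median log2 ratio of -0.38, against 0.21 over all genes.

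Among the 38 measured surface or secreted proteins, 8 stood at least 2-fold higher in the P180 pull-down and 8 at least 2-fold lower, with a median of -0.15. The higher ones were Islr2, Lrig3, Lgi3, Elfn2, Lgi2, Lrrtm3, Elfn1 and Lingo1, and the lower ones Lrig2, Amigo2, Lrrc4, Lingo2, Lrfn3, Slitrk1, Flrt1 and Lrrtm2. Of the 8 higher genes 4 had no count in the GFP control, and such a gene, once past the filter, is always called higher. With counts in both libraries 4 of 34 were higher and 8 lower, against 25.6% and 24.0% of all genes seen in both. Where scaled counts averaged 100 or more, 3 of 30 were higher (10%) and 7 lower (23.3%), against 22.8% and 22.6% of all 6693 such genes. The share of higher genes thus lay below that of all genes with each filter, while the share of lower genes lay close to it. No test was made of the difference in shares.

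**Figure D1:**
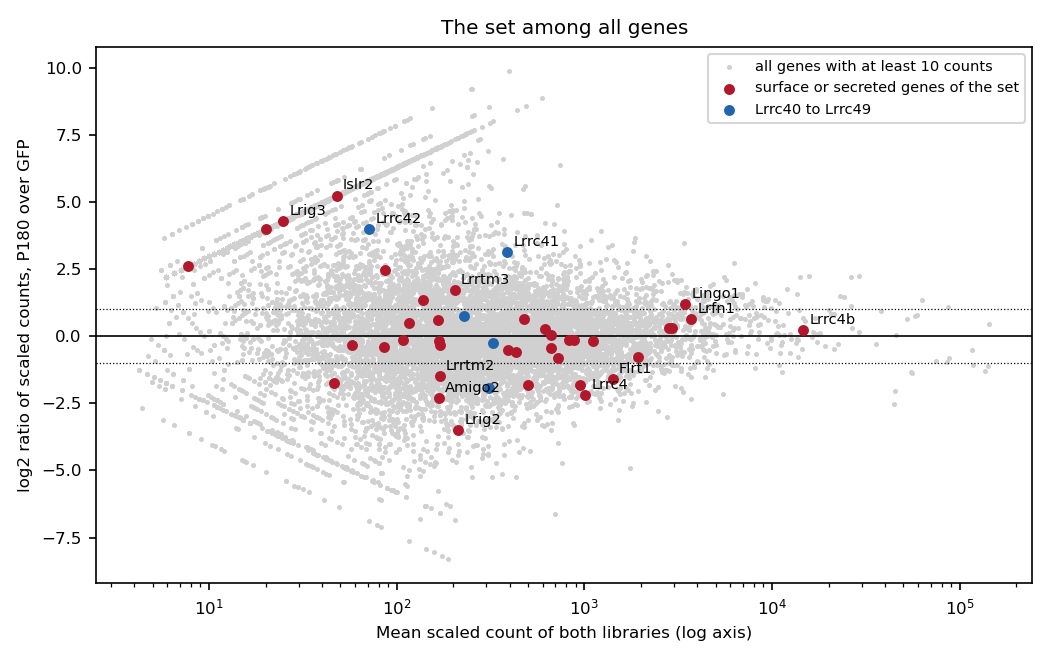
The mean scaled count of both libraries (x axis, log scale) is plotted against the log2 ratio of scaled counts, P180 over GFP, for all 11468 genes with at least 10 counts (grey), the 38 surface or secreted LRR genes (red) and the 5 measured Lrrc40 to Lrrc49 genes (blue), with dotted lines at 2-fold. Most red points lie between or below the dotted lines, and the diagonal rows at the upper left are genes with few or no counts in the GFP control.

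The netrin-G ligand family, Lrrc4, Lrrc4b and Lrrc4c, sits in the postsynaptic membrane and organises excitatory synapses by binding netrin-G proteins or receptor phosphatases on the facing axon. Lrrc4b alone made up 35.5% of the set's counts in the P180 pull-down and 31.8% in the GFP control. It had 13352 counts in the P180 pull-down and 16015 in the GFP control, or 1.16-fold higher in the P180 pull-down after scaling, a log2 ratio of 0.22 (0.19 to 0.25) that fell to -0.02 when libraries were scaled by their totals less the mitochondrially encoded genes and the tag (EGFP_avitag), here called nuclear totals. Its ratio was therefore near 1, on either side of it by the choice of scaling. Lrrc4 had 305 and 1965 counts, 4.61-fold lower in the P180 pull-down (log2 ratio -2.21, -2.38 to -2.03). Lrrc4c had 1209 and 2873 counts and a log2 ratio of -0.77 (-0.86 to -0.67), which nuclear totals moved just past 2-fold lower. The counting intervals of the 3 paralogs did not overlap, which concerns counting error only, and none of the 3 was at least 2-fold higher.

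The Lrfn proteins, also called SALMs, are synaptic adhesion molecules of dendrites. Lrfn1, Lrfn2 and Lrfn4 bind the postsynaptic scaffold PSD-95. Lrfn1 and Lrfn2 stood highest in the family. Lrfn1 had 3805 counts in the P180 pull-down and 3446 in the GFP control (log2 ratio 0.63, 0.56 to 0.69), and Lrfn2 had 493 and 439 (0.65, 0.46 to 0.84). Lrfn4, with 712 and 1092 counts (-0.13), and Lrfn5, with 889 and 1396 (-0.17), lay close to equality. Lrfn3 was the exception at 353 and 1736 counts, 3.52-fold lower in the P180 pull-down (-1.82, -1.98 to -1.65), and its interval lay below those of its 4 paralogs.

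The Slitrk proteins bind receptor phosphatases of the presynaptic membrane and promote the formation of excitatory or inhibitory synapses. Slitrk5, with 576 and 660 counts, had the highest ratio of the 5 measured (log2 ratio 0.29, 0.12 to 0.45). Slitrk2 had 134 and 210 counts, Slitrk3 had 87 and 134, and both intervals included equality (-0.17, -0.49 to 0.15, and -0.14, -0.55 to 0.26). Slitrk4, with 292 and 619 counts, stood at -0.60 (-0.81 to -0.40). Only Slitrk1 in this family passed 2-fold, at 18 counts in the P180 pull-down and 85 in the GFP control (3.38-fold lower, log2 ratio -1.76), and at that depth its interval ran from -2.58 to -1.01. Slitrk6 had 6 counts and 0, below the minimum.

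The Lrrtm proteins are postsynaptic partners of the neurexins and take part in anchoring AMPA receptors. The 2 measured members went opposite ways. Lrrtm2 had 75 counts in the P180 pull-down and 296 in the GFP control, 2.82-fold lower (log2 ratio -1.50, -1.88 to -1.13). Lrrtm3 had 264 and 112 counts, 3.29-fold higher (1.72, 1.40 to 2.05). Lrrtm4 had 3 counts and 0, too few for a ratio, and Lrrtm1 was not analysed here.

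Across these 4 synapse-organising families, Lrrc4, Lrfn, Slitrk and Lrrtm, 15 genes were measured, all with counts in both libraries. Of the 15, Lrrtm3 was higher by at least 2-fold and Lrrc4, Lrfn3, Slitrk1 and Lrrtm2 were lower. Among all genes seen in both libraries 25.6% were higher and 24.0% lower, against 40.6% and 19.9% of all genes.

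The Flrt proteins bind latrophilins and Unc5 receptors in axon guidance and synapse formation. Flrt3, with 2718 and 3090 counts, was 1.23-fold higher in the P180 pull-down (log2 ratio 0.30, 0.22 to 0.37). Flrt2 had 272 and 545 counts (-0.52, -0.74 to -0.31). Flrt1 had 598 and 2507 counts and was lower by a factor of 3 (-1.59, -1.72 to -1.46). The 3 intervals did not overlap.

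The Lrrn proteins are neuronal transmembrane LRR proteins that also carry an immunoglobulin domain. None of the 3 measured passed 2-fold. Lrrn2 had 2646 and 3018 counts (log2 ratio 0.29, 0.22 to 0.37), Lrrn1 had 169 and 155 (0.61, 0.28 to 0.93), and Lrrn3 had 568 and 768 (0.05, -0.11 to 0.21). The ratio of Lrrn3 was within counting error of 1 and turned to -0.01 when scaled by total counts and to -0.19 by nuclear totals. Lrrn4 had no count in either library.

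Islr2, also known as Linx, is a transmembrane protein that acts in axon guidance. It had 81 counts in the P180 pull-down and none in the GFP control, at least 37.7-fold higher against the floor, with a lower counting limit of 30.0. This was the highest ratio of the 43 genes. Having no count in the GFP control was common among genes of this depth, at 42.4% of the 4842 genes with at least 10 but under 100 counts in the P180 pull-down, against 4.69% of the 6168 genes with 100 or more.

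**Figure D2:**
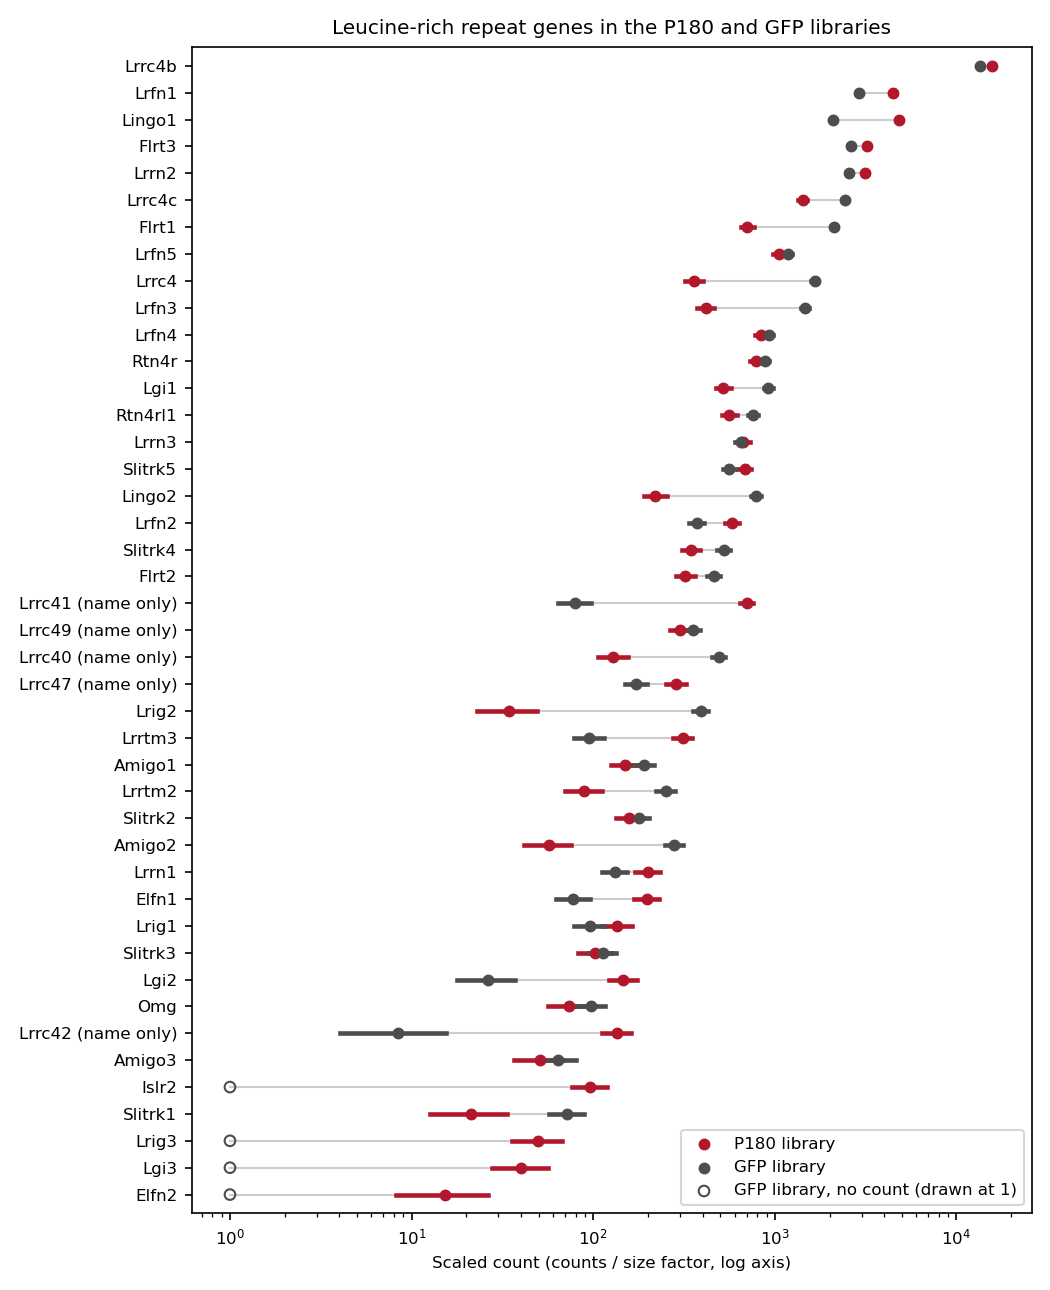
Scaled counts (x axis, log scale) of the 43 LRR genes with at least 10 counts are shown for the P180 pull-down (red) and the GFP control (grey), with bars for exact 95% Poisson intervals and open circles, drawn at 1, for the 4 genes without a count in the GFP control. Lrrc4b stands at the top with nearly equal values, Lingo1 and Lrfn1 have higher values in the P180 pull-down, and Flrt1, Lrrc4, Lrfn3 and Lrig2 have higher values in the GFP control.

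Several proteins of the set limit the growth of axons. The Nogo receptor Rtn4r is a lipid-anchored protein that binds Nogo, myelin-associated glycoprotein and the oligodendrocyte-myelin glycoprotein Omg, and it signals together with Lingo1. Lingo1 had 4066 counts in the P180 pull-down and 2479 in the GFP control, 2.29-fold higher (log2 interval 1.12 to 1.27). It was the only gene of the set with over 1000 counts in both libraries that passed 2-fold in either direction. That limit leaves out Flrt1 and Lrrc4, both at least 2-fold lower, whose scaled counts averaged 1414 and 1011. Scaling by nuclear totals brought Lingo1 to 0.96, just under the 2-fold line. Rtn4r did not go with it, at 665 and 1037 counts (-0.16, -0.30 to -0.02). Its relative Rtn4rl1 had 476 and 899 counts (-0.43, -0.60 to -0.27), and Rtn4rl2 had 4 and 0. Omg had 62 and 115 counts, with an interval that included equality (-0.41, -0.88 to 0.05).

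Lingo2, a paralog of Lingo1, went the other way. It had 186 counts in the P180 pull-down and 927 in the GFP control, 3.57-fold lower (log2 ratio -1.83, -2.07 to -1.61). Lingo3 and Lingo4 had no count in either library.

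The Lgi proteins are secreted and bind ADAM22 and its relatives at synapses, and mutations of LGI1 cause a human epilepsy. Lgi1 had 441 counts in the P180 pull-down and 1089 in the GFP control (log2 ratio -0.82, -0.98 to -0.66), and -1.06 with nuclear totals. Lgi2 had 124 and 31 counts and was 5.59-fold higher in the P180 pull-down (2.48, 1.90 to 3.10). Lgi3 had 34 counts and 0, at least 15.8-fold higher against the floor, with a lower counting limit of 12.2. Lgi1, the member with the most counts, thus stood lower and the other 2 higher, and Lgi4 had no count in either library.

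Of the surface families, Lrig showed the widest spread, with Lrig3 at its upper end known only as a bound. Its first member, Lrig1, is known as a brake on growth factor receptors of the EGF receptor family. Lrig1 had 115 and 113 counts (log2 ratio 0.51, 0.12 to 0.90). Lrig2 had 29 counts in the P180 pull-down and 462 in the GFP control, 11.4-fold lower (-3.51, -4.11 to -2.97), the lowest ratio of the set. Lrig3 had 42 counts and 0, at least 19.6-fold higher against the floor, with a lower counting limit of 15.2. No intervals of the 3 overlapped, but a gene without a count in the GFP control could pass the filter only as higher.

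Elfn1 and Elfn2 are postsynaptic proteins that bind group III metabotropic glutamate receptors across the synapse. Both stood at least 2-fold higher in the P180 pull-down, Elfn1 with 167 and 92 counts (2.54-fold, log2 ratio 1.34, 0.97 to 1.73) and Elfn2 with 13 counts and 0 (at least 6.05-fold against the floor, lower counting limit 4.26). The lower limit of Elfn1 fell just under 2-fold, and the call on Elfn2 rests on 13 counts.

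The Amigo proteins are adhesion molecules, and Amigo1 is also an auxiliary subunit of the potassium channel Kv2.1. None of the 3 was higher in the P180 pull-down. Amigo1 had 127 and 225 counts (log2 ratio -0.34, -0.67 to -0.02), and Amigo3 had 43 and 76 (-0.34, -0.91 to 0.22). Amigo2 had 48 counts in the P180 pull-down and 330 in the GFP control, 4.92-fold lower (-2.30, -2.77 to -1.86).

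**Figure D3:**
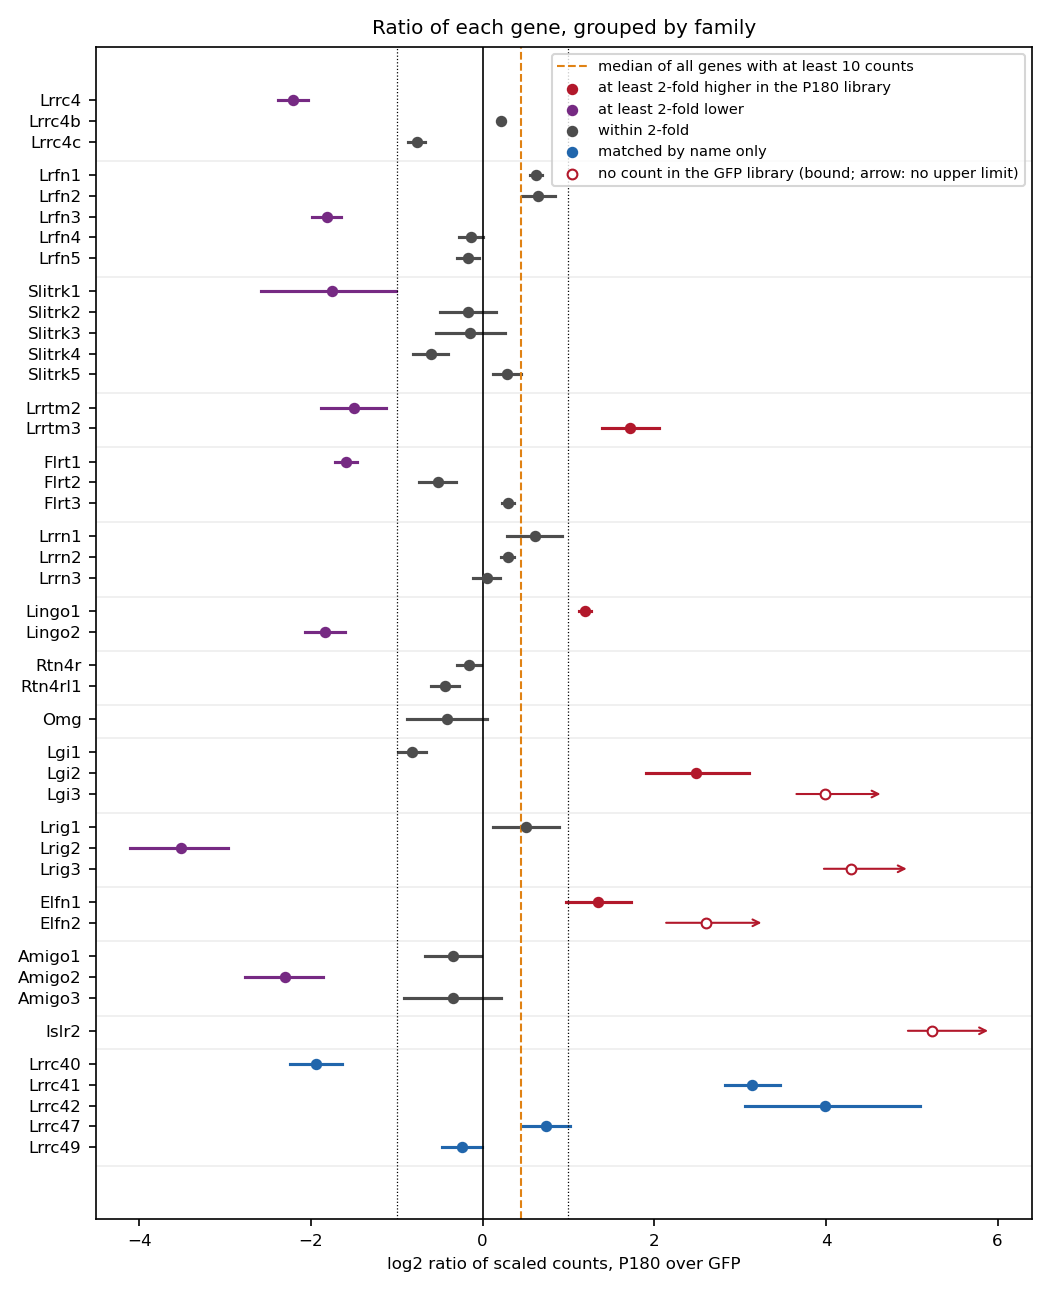
The log2 ratio of scaled counts, P180 over GFP (x axis), is shown with exact 95% counting intervals for the 43 LRR genes, grouped by family and coloured by call, with the Lrrc40 to Lrrc49 genes in blue. Dotted lines mark 2-fold, the dashed line marks the median of all genes (0.45), and open points with arrows are bounds for the 4 genes without a count in the GFP control. Members of the Lrrtm, Lingo, Lgi and Lrig families lie on both sides of 0, Lrrn genes stay within 2-fold, and Lrig2 and Islr2 mark the ends of the range.

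The Lrrc40 to Lrrc49 genes lay on both sides of equality. Of the 8, 5 were measured, all with counts in both libraries and with a median log2 ratio of 0.74. Of these 5, 2 passed the 2-fold line upward (40%) and 1 downward (20%). The shares were 25.6% and 24.0% among all genes seen in both libraries, and 40.6% and 19.9% among all genes. With so few genes the difference in shares was not tested. Lrrc41, a substrate adaptor of a ubiquitin ligase, had 591 counts in the P180 pull-down and 94 in the GFP control, 8.78-fold higher (log2 ratio 3.13, 2.82 to 3.46). Lrrc42 had 114 and 10 counts and was 15.9-fold higher (3.99, 3.06 to 5.09). These were the highest ratios of the set among genes with counts in both libraries, above every surface protein with counts in both. Lrrc47 had 243 and 203 counts (0.74, 0.47 to 1.02), and Lrrc49, a subunit of the enzyme that adds glutamates to tubulin, had 253 and 417 (-0.24, -0.47 to -0.01). Lrrc40 had 109 and 582 counts and was 3.82-fold lower (-1.93, -2.24 to -1.64). Lrrc43 and Lrrc46 had 4 and 5 counts in the P180 pull-down and 0 in the GFP control, and Lrrc45 had no count in either. The median of the surface proteins was 0.89 lower than that of these 5 on the log2 scale, a difference of -0.41 where scaled counts averaged 100 or more and only 4 of the 5 remain, so the direction rests on very few genes.

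Several LRR genes lie inside an intron or a longer span of another gene, which gives a neighbour from the same locus to set beside them. By the RefSeq annotation of the GRCr8 assembly, used here for gene neighbourhood only since the counts were made on mRatBN7, 9 of the 53 genes fall wholly within the span of another protein-coding gene. Of these, Flrt3 (log2 ratio 0.30) and Lrrtm3 (1.72) lie within Macrod2 and Ctnna3, which were not found by name among the counts, so both were left out. For 7 of the 9 genes the surrounding gene also had at least 10 counts. It was at least 2-fold higher in the P180 pull-down in 6 of the 7 pairs, and in the same 6 pairs the interval of the LRR gene lay wholly below that of the surrounding gene. Over all genes 40.6% were higher by that factor. For intervals that lie apart, no share over other pairs of genes was computed. Most single genes had an interval that left out equality (6103 of 11468 above it and 3866 below), so separation alone does not mark these pairs out. The surrounding genes Ctnna1, Nf1 and Immp2l had no count in the GFP control. Passing the filter therefore made them higher and also put their intervals above those of their LRR genes. Without them 3 of 4 were higher, against 25.6% of all genes seen in both libraries, and the intervals were apart in the same 3 pairs.

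In 3 pairs the LRR gene itself was lower. Lrrc4 (log2 ratio -2.21) lies within Snd1, a nuclease and RNA-binding protein, which had 1031 counts in the P180 pull-down and 381 in the GFP control (1.92, 1.75 to 2.09). Flrt1 (-1.59) lies within Macrod1, with 310 and 17 counts (4.67, 3.97 to 5.47). Lrrtm2 (-1.50) lies within Ctnna1, the adhesion protein alpha-catenin, with 305 counts and 0, a bound of 7.15 on the log2 scale with a lower counting limit of 6.84. In each of these pairs the LRR gene was at least 2-fold lower and its surrounding gene at least 2-fold higher.

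Lrfn4 (-0.13) lies within Pc, pyruvate carboxylase, which had 178 and 10 counts (4.64, 3.72 to 5.72). Lrrn3 (0.05) lies within Immp2l, with 11 counts and 0, and Omg (-0.41) within Nf1, the gene of neurofibromin, with 17 and 0. Amigo3 (-0.34) within Rnf123 was the pair that did not differ beyond its intervals, with 609 and 783 counts for Rnf123 (0.12, -0.04 to 0.27). The 2 genes ran on opposite strands in 5 of the 7 pairs and the strand was not given for Lrfn4 with Pc and Lrrtm2 with Ctnna1. Whether the authors' counting used strand is not given in the sources used here, so reads of an overlap could have been credited to either gene.

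**Figure D4:**
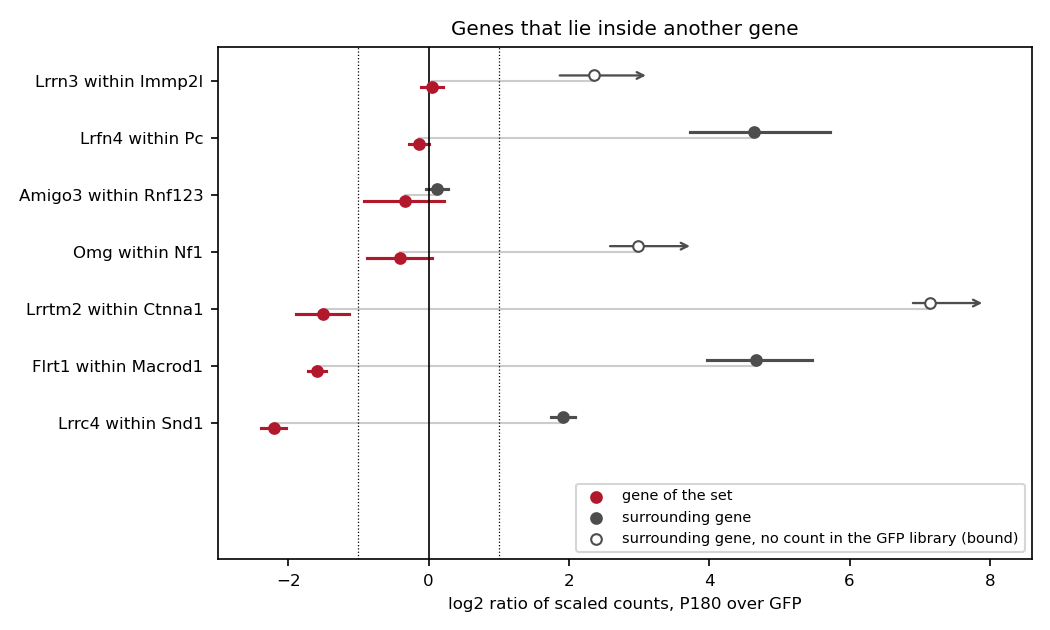
The log2 ratio of scaled counts, P180 over GFP (x axis), is shown with exact 95% counting intervals for 7 LRR genes (red) and the gene whose span holds each of them (grey). Open points with arrows are bounds for the 3 surrounding genes without a count in the GFP control, and 6 of the 7 grey points lie to the right of 1 while every red point lies at or left of 0.05. Flrt3 (0.30) and Lrrtm3 (1.72), whose surrounding genes were not found among the counts, are not drawn.

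Genes of the known binding partners of these proteins were listed for comparison, 28 in all. Of the 23 that were measured 10 stood at least 2-fold higher in the P180 pull-down and 4 lower (median log2 ratio 0.50), against 40.6% and 19.9% of all genes, and 5 of the 10 higher ones had no count in the GFP control. The named partners did not share a direction. Nrxn2, a neurexin and so a partner of the Lrrtm proteins, had a log2 ratio of 0.38, while its paralog Nrxn3, with 937 and 280 counts, was 4.68-fold higher (2.23, 2.03 to 2.42). Among the receptor phosphatases that bind Slitrk, Lrfn and Lrrc4b proteins, Ptprd (-0.38), Ptprs (0.07) and Ptprf (0.68) all lay within 2-fold. The latrophilins Adgrl1 (0.50) and Adgrl3 (0.39), which bind Flrt proteins, did so too, as did the netrin-G gene Ntng1 (-0.06).

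The Unc5 receptors, the other partners of the Flrt proteins, were divided. Unc5a had 70 and 269 counts (log2 ratio -1.46) and Unc5c had 278 and 1192 (-1.62), both lower in the P180 pull-down. Unc5b had 96 and 45 (1.58), and Unc5d had 17 counts and 0. The glypicans, heparan sulfate proteoglycans of which Gpc4 is a partner of Lrrtm4, were both higher, Gpc4 with 1058 and 361 counts (2.03, 1.86 to 2.21) and Gpc5 with 130 and 4 (5.50, 4.11 to 7.40).

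The ADAM receptors of the Lgi proteins had few counts and did not share a direction. Adam22, the main receptor of Lgi1, had 27 counts in the P180 pull-down and 120 in the GFP control (log2 ratio -1.67, -2.33 to -1.06), whereas Adam23 had 35 counts and 0 and Adam11 had 18 and 0. Among the glutamate receptors that bind Elfn proteins, Grm4 had 185 and 122 counts (1.08, 0.75 to 1.42), Grm7 had 23 and 0, Grm6 had 10 and 0, and Grm8 had 3 and 24 (-2.52, -4.89 to -0.80). Rtn4, which encodes the Nogo receptor's ligand and an ER tubule-shaping protein, had 9049 and 12066 counts and stood at 0.07 (0.03 to 0.11). The co-receptor genes Ngfr and Tnfrsf19 and the ligand gene Mag had at most 4 counts.

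Other neuronal adhesion families were set beside the LRR proteins. Of 9 measured neurexins, neuroligins and SynCAMs 3 were at least 2-fold higher and 1 lower (median log2 ratio 0.51), and of 12 members of the L1, contactin and NCAM families 5 were higher and 0 lower (0.85), against 40.6% and 19.9% of all genes. Of these 8 higher genes 5 had no count in the GFP control, namely Nlgn3, Cntn2, Cntn3, Cntn4 and Cntn5. Among genes whose scaled counts averaged 100 or more the medians were 0.51 over 9 genes and 0.75 over 7, against -0.16 over the 30 LRR surface or secreted proteins and -0.03 over all 6693 genes. The LRR proteins thus had the lowest median of the 3 groups with either filter, a difference between these libraries that was not tested.

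**Figure D5:**
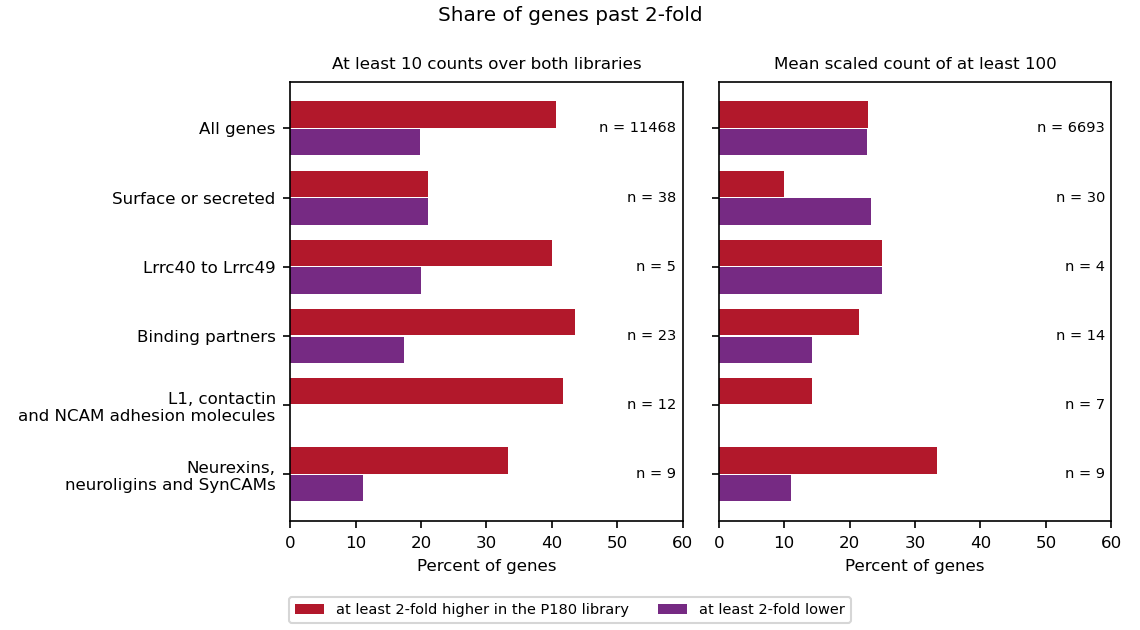
Bars give the percent of genes at least 2-fold higher (red) or lower (purple) in the P180 pull-down for all genes, the surface or secreted LRR proteins, the Lrrc40 to Lrrc49 genes, their listed binding partners and 2 other groups of adhesion proteins, with at least 10 counts over both libraries (left) or scaled counts averaging 100 or more (right), and n is the number of genes. Among the LRR surface proteins 10% were higher with the second filter, against 22.8% of all genes.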

How the data were processed

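RNA from streptavidin pull-downs of P180-GFPbio and GFPbio in rat primary cortical neurons was measured in 1 library each. The authors made adapted CEL-Seq2 libraries, which count the 3' ends of mRNAs, aligned them to mRatBN7 with STARsolo 2.7.10a (also in the submitters' processing notes), dropped multi-mapping reads, and deposited raw counts per gene. Which annotation was used, and whether molecular identifiers were collapsed, is not given in the sources used here, and without collapsing the counting intervals are too narrow.

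The table also holds 2 columns of counts, named as second replicates of these conditions, that match no sample given here and were not used. The 92 ERCC rows, with 2 and 9 counts, were left out. Genes needed 10 counts or more in sum and were scaled by median-of-ratios size factors, computed over genes with counts in both. Ratio intervals are exact (95%, Clopper-Pearson, from how each gene's counts divide between the libraries). The study's own test was not repeated, because it needs replicates. The steps were tested on simulated counts that varied by counting error only, which checks the code and not the spread between real libraries. Members and lists were chosen with earlier results of these data known. By rule every member could be named, with ratio and interval where scaled counts averaged 100 or more or one library had no count, and partners and markers came from lists. Ratios of the other members, the surrounding genes and the genes of other adhesion families fall outside that rule and were chosen after their values were seen. The values of 1 listed partner gene are not reported here. All 53 symbols matched the RefSeq table. Python 3.11.15, numpy 2.4.6, pandas 2.3.3, scipy 1.17.1 and edgeR 4.0.16 (for TMM factors) were used. Alternatives were TMM, 2 scalings by total counts, 3 other filters on low counts, thinning of the GFP library, a floor of 1 count and an offset of 5 scaled counts.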

Additional observations from a re-analysis of the deposited data

How the results depend on the processing

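Scaling by TMM factors or by total counts changed none of the counts past 2-fold for the set and its surface proteins, nor the counts of higher Lrrc40 to Lrrc49 genes and partners. Nuclear totals (total counts less mitochondrially encoded genes and EGFP_avitag) shifted the median ratio by -0.24 on the log2 scale, left 9 genes of the set at least 2-fold higher and 11 lower, and moved 21 of the 43 ratios beyond their counting intervals. With that scaling 37.4% of all genes were higher and 24.0% lower. The filter on low counts mattered most. Where scaled counts averaged 100 or more, 8 of 34 genes of the whole set were at least 2-fold lower, against 22.6% of all genes. Only 4 of the 34 were at least 2-fold higher, against 22.8% of all genes. By group the higher ones were 3 of 30 surface or secreted proteins and 1 of 4 Lrrc40 to Lrrc49 genes. Of the binding partners 3 of 14 were higher. The difference between the medians of surface proteins and Lrrc40 to Lrrc49 genes was -0.41 with this filter. With counts required in both libraries 9 of 39 genes of the set were lower, against 24.0% of all genes. With the same requirement 6 of the 39 and 4 of 34 surface proteins were higher. So were 5 of 18 partners, against 25.6% of all genes. Fewer genes pass these filters, and genes without a count in the GFP library are the first to go. A floor of 1 count raises the 4 bounds by construction. No gene past 2-fold changed its direction under any of the 9 alternatives. No paired analysis was possible because 1 library per condition was analysed here, and the columns named as second replicates match no sample given here.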
